A study of Mus musculus with 12 samples.

Results

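The comparison set 3 libraries from mouse hepatocytes given Mito-TEMPO before FAC against 3 libraries from hepatocytes given liproxstatin-1 before FAC, 6 libraries of 12 in all. They were chosen by their titles, with no use of measured values, and every expressed gene was examined. The samples were primary hepatocytes from mouse liver in culture. The other 6 libraries were 3 of control cells and 3 of cells given FAC alone. The scavengers went on at day 2 of culture, ahead of FAC. The submitters describe liproxstatin-1 as a scavenger of lipid reactive oxygen species (ROS) and Mito-TEMPO as a scavenger of mitochondrial ROS. Their labels write FAC without spelling it out. Both compared groups carried FAC, and no group received a scavenger without it, so an effect of a scavenger by itself cannot be told apart from its effect on the response to FAC. The strain, age and sex of the mice, the doses and the duration are not given in the sources used here. Nothing in the labels says that the 3 libraries of a group came from separate cultures or animals, so the p-values measure the spread between these libraries, which may be technical.

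The title of the study names mitochondrial ROS and the sensitivity of hepatocytes to ferroptosis, a form of cell death driven by iron-dependent peroxidation of membrane lipids. Liproxstatin-1 traps lipid radicals in membranes, whereas Mito-TEMPO is a nitroxide carried into mitochondria by its charged phosphonium group. Hepatocytes make cholesterol through a chain of enzymes whose genes are driven by the transcription factor SREBP2. When sterols are plentiful, INSIG proteins hold SREBP2 in the endoplasmic reticulum, and when sterols run low SREBP2 moves to the nucleus and turns on the enzymes, sterol uptake and Insig1 itself. The antioxidant programme of the liver is driven by the factor NRF2, which KEAP1 marks for degradation until electrophiles or oxidants disable KEAP1. NRF2 targets import cystine, make glutathione, supply NADPH, conjugate toxins and pump the conjugates out of the cell.

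The 6 libraries held 22991598 to 31683376 reads assigned to genes. Levels are given as CPM, the count of a gene relative to a fixed total of reads per library. Summed CPM of 8 hepatocyte markers, among them albumin and transthyretin, ranged from 57240 to 62560 CPM with liproxstatin-1 and from 61760 to 62700 CPM with Mito-TEMPO. The sums for 7 Kupffer cell or macrophage markers were 116.4 to 147.1 CPM and 143.1 to 174.6 CPM in the same order, and those for 6 sinusoidal endothelial markers were 24.96 to 26.77 CPM and 25.75 to 29.58 CPM. The 7 stellate cell or fibroblast markers summed to 10.22 to 11.87 CPM with liproxstatin-1 and 12.03 to 12.84 CPM with Mito-TEMPO, ranges that did not overlap. The 6 cholangiocyte markers summed to 109.7 to 124.9 CPM and 104.4 to 144.9 CPM. Of 6 lymphocyte or neutrophil markers 4 were at 0 in all 6 libraries, and of 3 mesothelial markers 1 was at 0. The test took in all 8 hepatocyte and 7 Kupffer cell or macrophage markers and 5 each of the endothelial, stellate and cholangiocyte lists, and called none of them. No lymphocyte, neutrophil or mesothelial marker passed the filter on low counts, so these were not tested between the groups, and the part of minor cell types in the results below was not tested. In bulk RNA, fewer cells of a type and less RNA per cell cannot be told apart.

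Of 13535 genes tested, 182 (1.34%) differed between Mito-TEMPO and liproxstatin-1 at an adjusted p below 0.05 in edgeR's quasi-likelihood test with Benjamini-Hochberg adjustment. With Mito-TEMPO 63 genes (0.465% of those tested) were higher and 119 genes (0.879%) were lower, so that 34.6% of calls were higher. With upper-quartile scaling of the libraries this share was 46.7%. At an unadjusted p below 0.05, 885 genes were higher and 910 lower. The differences were small: the median absolute log2 fold change of the called genes was 0.417. Only 11 called genes differed by a log2 fold change of at least 1 in either direction, of which 9 were higher with Mito-TEMPO. Of these 9, 7 had a mean below 5 CPM over the 6 libraries. The 6 libraries did not overlap between groups in any of the 182 called genes, compared with 19.8% of all genes tested, 10.2% with Mito-TEMPO above and 9.6% with Mito-TEMPO below. The called genes numbered 76 and 77 without liproxstatin-1 libraries 1 and 2, 86 and 74 without Mito-TEMPO libraries 2 and 3, and within 1.5 times the 182 without either other library. In these 6 fits, each leaving out 1 library, 56 of the 182 genes were called every time, 44 of them lower with Mito-TEMPO.

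**Figure D1:**
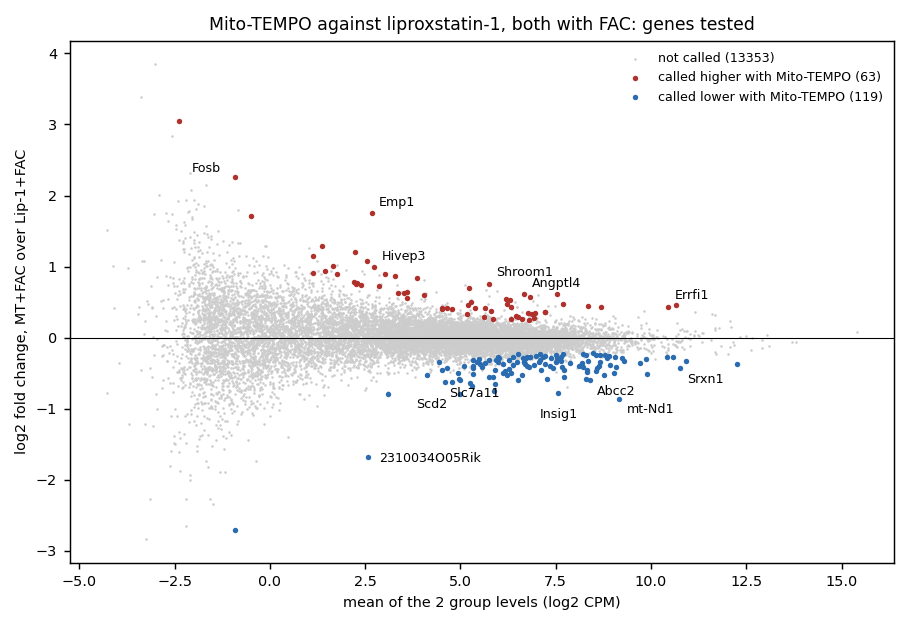
Log2 fold change of Mito-TEMPO + FAC over liproxstatin-1 + FAC (vertical axis) against mean expression as log2 CPM (horizontal axis) for the 13535 genes tested. Called genes are coloured by direction, 63 higher and 119 lower with Mito-TEMPO, and most lie within a log2 fold change of 1.

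In the cholesterol synthesis list, every call was a lower level with Mito-TEMPO. Of 21 listed and tested enzymes, 10 were called lower and none higher, 20 had a negative log2 fold change, and in 16 the Mito-TEMPO libraries lay wholly below the liproxstatin-1 libraries. Over all genes tested, 0.879% were called lower and 9.6% lay wholly below. The median log2 fold change of the list was -0.375, beside 0.00205 over all genes. The calls ran along the whole chain: 3 of 6 enzymes from acetyl-CoA to mevalonate, 2 of 3 from isoprenoids to squalene, and 5 of 12 from squalene to cholesterol. The called count was 7 to 10 when any 1 library was left out. Among the sterol sensing and uptake genes, 4 of 13 were called lower and none higher, with a median log2 fold change of -0.183. That count was 3 without any 1 library, the lost call being Stard4.

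Insig1 (chromosome 5, positions 28071363 to 28078662, plus strand, GRCm38), which retains SREBP2 in the endoplasmic reticulum, had the smallest adjusted p of all genes. It stood at 232, 232 and 251 CPM in the 3 liproxstatin-1 libraries and at 148.9, 131 and 139 CPM in the 3 Mito-TEMPO libraries. Every Mito-TEMPO library was below every liproxstatin-1 library, and the Mito-TEMPO mean of 139.6 ± 8.94 CPM (SD, n = 3) lay near the means of 132 ± 11 CPM in control and 123 ± 1.72 CPM with FAC alone. The log2 fold change was -0.77 (standard error 0.07; adjusted p = 1.24e-05, edgeR).

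Hmgcs1 (chromosome 13, positions 119690379 to 119708260, plus strand) makes HMG-CoA, an early intermediate of the pathway. It measured 375, 382 and 368 CPM with liproxstatin-1 and 249, 239 and 267 CPM with Mito-TEMPO. The groups did not overlap, and the log2 fold change was -0.58 (standard error 0.07; adjusted p = 0.000313, edgeR). Its mean was 217 ± 23.6 CPM in control and 148.7 ± 8.36 CPM with FAC alone (SD, n = 3 each), so the Mito-TEMPO mean of 252 ± 14.1 CPM lay between FAC alone and liproxstatin-1. Another annotated gene overlaps 12.12% of the exonic bases of Hmgcs1, and the counts used no strand.

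The 250 bases before the RefSeq start of Hmgcs1 are shown because it was the only called cholesterol enzyme whose promoter window held the sterol element letters searched. The window is chr13:119690101-119690350 on the plus strand of GRCm38.p6, from RefSeq, written 5′ to 3′ with matches on either strand in capitals.
Hmgcs1: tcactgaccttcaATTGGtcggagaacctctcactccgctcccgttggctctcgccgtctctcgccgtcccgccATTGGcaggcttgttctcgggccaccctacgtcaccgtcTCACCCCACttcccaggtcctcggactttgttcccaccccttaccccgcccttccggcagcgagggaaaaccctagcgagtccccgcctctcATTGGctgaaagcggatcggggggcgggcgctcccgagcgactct
The letters searched on both strands were TCACNCCAC (a sterol element), CCAAT (the box bound by NF-Y) and TGACNNNGC (an antioxidant element). In Hmgcs1 the sterol element match began 137 bases before the start, and CCAAT matched 237, 176 and 45 bases before it. RefSeq promoter windows were found for 8 of the 10 called enzymes. The sterol element letters were in 1 of these 8 windows (12.5%), beside 1.06% of the 12601 windows of tested genes, and CCAAT in 7 (87.5%), beside 35.5%. Of the 19 windows of the whole list, called or not, 1 (5.26%) held the sterol element letters and 15 (78.9%) held CCAAT. A match describes letters in the window and not a bound site.

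The isomerase Idi1, which interconverts the isoprenoid building blocks, had the lowest log2 fold change of the list. It measured 80.0, 77.7 and 62.1 CPM with liproxstatin-1 and 41.4, 37.9 and 52.4 CPM with Mito-TEMPO. The groups did not overlap, but the spread within each was wide, and the log2 fold change of -0.74 (standard error 0.14; adjusted p = 0.0192, edgeR) lost its call without liproxstatin-1 library 1 or 2 or Mito-TEMPO library 1 or 2. Fdft1, which joins isoprenoids into squalene, averaged 244 ± 12.1 CPM with liproxstatin-1 and 177 ± 5.72 CPM with Mito-TEMPO (SD, n = 3 each), a log2 fold change of -0.46. Processed pseudogenes match Idi1 and Fdft1 over part of each transcript, so both counts are uncertain.

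Of the later enzymes, the lanosterol demethylase Cyp51 averaged 449.9 ± 18.5 CPM with liproxstatin-1 and 342 ± 2.66 CPM with Mito-TEMPO. The sterol methyl oxidase Msmo1 averaged 371 ± 16.8 and 266 ± 10.01 CPM, and the sterol desaturase Sc5d 439 ± 25.5 and 326 ± 17.5 CPM. The sterol dehydrogenase Nsdhl averaged 93.5 ± 0.512 and 71.4 ± 4.63 CPM in the same order (SD, n = 3 for each mean). The log2 fold changes of these 4 enzymes were -0.40, -0.48, -0.43 and -0.39, and all 4 were called in each fit without 1 library, as were Fdft1 and Hmgcs1. Hsd17b7, a reductase of the same stage, averaged 113 ± 7.61 and 89.5 ± 6.74 CPM. It was not called without liproxstatin-1 library 2 or 3 or Mito-TEMPO library 1 or 2. Acat2, which condenses acetyl-CoA at the top of the chain, averaged 116 ± 8.08 and 89.8 ± 6.45 CPM. It was not called without liproxstatin-1 library 1 or Mito-TEMPO library 2, and its counts are uncertain because Acat3 is 97.7% identical to it over the shared stretch. Sqle, the squalene epoxidase, was not called: it measured 538, 561 and 599.6 CPM with liproxstatin-1 and 469.7, 513 and 483 CPM with Mito-TEMPO, a log2 fold change of -0.21 with an edgeR adjusted p of 0.0699.

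Stard4, a carrier of cholesterol between membranes, averaged 45.9 ± 1.37 and 34.2 ± 0.907 CPM (SD, n = 3 each; edgeR adjusted p = 0.0337), and its call was lost without any 1 of the 6 libraries. The mRNA of SREBP2, Srebf2, was not called: it measured 125, 131 and 129.6 CPM with liproxstatin-1 and 114, 108 and 107 CPM with Mito-TEMPO, with an edgeR adjusted p of 0.0999. None of the 9 tested LXR and sterol efflux genes was called in either direction, and their median log2 fold change was 0.0849.

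**Figure D2:**
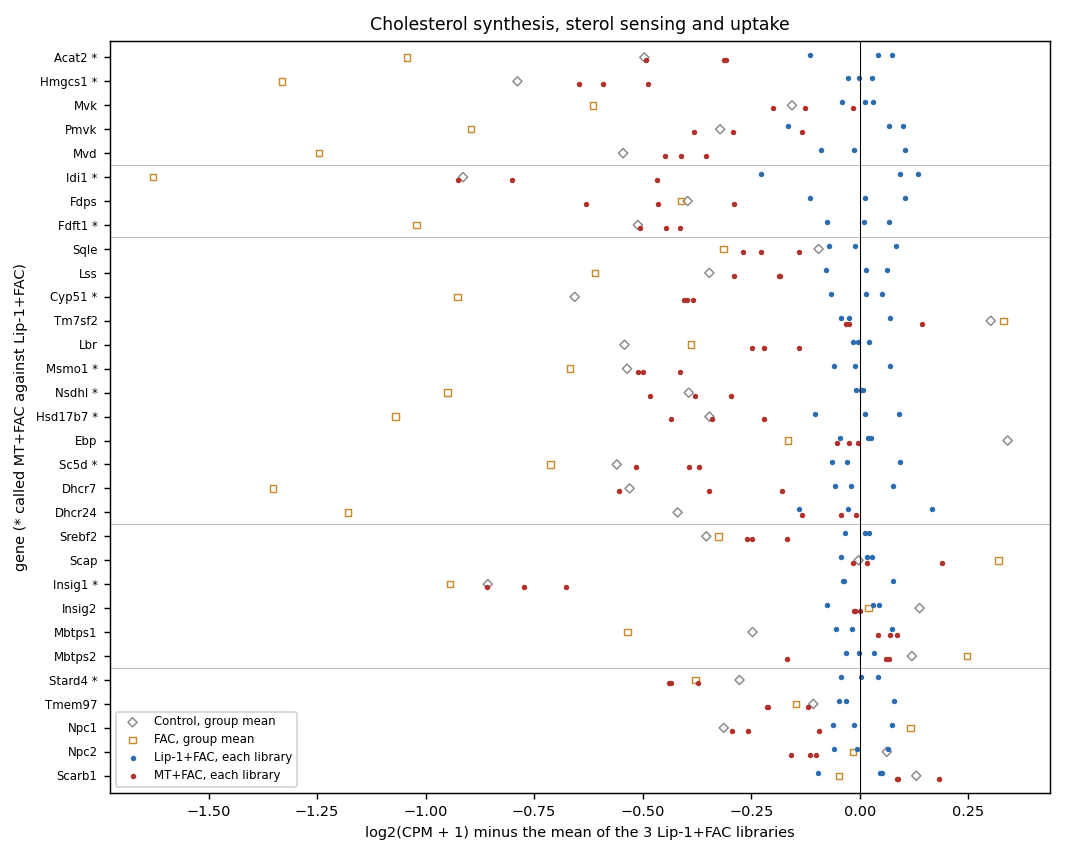
Expression of genes of the cholesterol and sterol uptake lists in each library, as log2(CPM + 1) minus the mean of the 3 liproxstatin-1 + FAC libraries. Filled points are single libraries of the 2 compared groups (blue liproxstatin-1 + FAC, red Mito-TEMPO + FAC), open marks are the means of control and FAC alone, and an asterisk marks a called gene. In the called genes all 3 red points lie to the left of, that is below, the blue points.

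Fatty acid genes followed only in part. Of 23 tested genes of fatty acid synthesis and desaturation, 3 were called lower with Mito-TEMPO and none higher. Over all genes tested, 0.879% were called lower and 0.465% higher. The median log2 fold change of the list was -0.0924. The count was 2 without any 1 library, and the median was -0.1896 without liproxstatin-1 library 2 and -0.1702 without Mito-TEMPO library 1. Scd2 (chromosome 19, positions 44293674 to 44306864, plus strand), a desaturase that makes monounsaturated fatty acids, measured 40.4, 38.9 and 40.9 CPM with liproxstatin-1 and 25.2, 21.1 and 23.3 CPM with Mito-TEMPO. The groups stood well apart, and both stood above control (12.4 ± 1.31 CPM) and FAC alone (6.12 ± 0.44 CPM; SD, n = 3 each). Mito-TEMPO was lower by a log2 fold change of -0.79 (standard error 0.10; adjusted p = 0.000313, edgeR). Acly, which makes cytosolic acetyl-CoA from citrate, measured 642, 577 and 630.2 CPM with liproxstatin-1 and 485, 429.6 and 476 CPM with Mito-TEMPO, again with no overlap (log2 fold change -0.41, edgeR adjusted p = 0.00651). Me1, the malic enzyme that supplies NADPH and is also on the NRF2 list, averaged 505 ± 28.6 and 415 ± 15.8 CPM, and its call (edgeR adjusted p = 0.043) was lost without any 1 library. Reads of a near-identical processed pseudogene could also be split from Me1. Scd1, the main hepatic desaturase, measured 1731, 1449.7 and 1724 CPM and 1725, 1447 and 1903 CPM, so the groups overlapped (edgeR adjusted p = 0.901). Fasn, the fatty acid synthase, measured 289, 285 and 339.8 CPM and 271, 203 and 205 CPM (edgeR adjusted p = 0.33), and Srebf1, its regulator, averaged 84.8 ± 1.11 and 89.4 ± 0.621 CPM (edgeR adjusted p = 0.692).

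All called NRF2 targets were lower with Mito-TEMPO too. Of 43 listed and tested targets, 13 were called lower and none higher, 41 had a negative log2 fold change, and 22 lay wholly below the liproxstatin-1 libraries, beside 0.879% called lower and 9.6% wholly below over all genes tested. The median log2 fold change was -0.235. Calls came from cystine and glutathione (3 of 5 genes), thioredoxin and peroxiredoxin (2 of 4), NADPH supply (3 of 6), conjugation (3 of 12), efflux pumps (1 of 4) and the group of heme, ferritin and other genes (1 of 6), and none of the 6 quinone and carbonyl reductases was called. The count of 13 depended on single libraries: it was 7 without liproxstatin-1 library 1, without liproxstatin-1 library 2 or without Mito-TEMPO library 3, 8 without Mito-TEMPO library 1, 9 without Mito-TEMPO library 2 and 15 without liproxstatin-1 library 3.

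Slc7a11 (chromosome 3, positions 49892526 to 50443614, minus strand) encodes the cystine importer of system xc-, which feeds glutathione synthesis. It measured 107, 115 and 108 CPM with liproxstatin-1 and 66, 71.8 and 80.1 CPM with Mito-TEMPO. All Mito-TEMPO libraries lay below the liproxstatin-1 libraries and above the means of FAC alone (51.9 ± 3.2 CPM) and control (13.3 ± 1.37 CPM; SD, n = 3 each). On the log2 scale the difference was -0.60 (standard error 0.08; adjusted p = 0.000579, edgeR).

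Gclm (chromosome 3, positions 122245557 to 122270732, plus strand) encodes the modifier subunit of the enzyme that limits glutathione synthesis. It measured 659.6, 674 and 659.6 CPM with liproxstatin-1 and 536, 539 and 563 CPM with Mito-TEMPO, without overlap, a log2 fold change of -0.28 (standard error 0.05; adjusted p = 0.00301, edgeR). The FAC mean of 518 ± 3.83 CPM was close to the Mito-TEMPO mean of 546 ± 14.8 CPM (SD, n = 3 each). Its partner Gclc, the catalytic subunit, measured 9156, 8835 and 9391 CPM and 8013, 8545 and 8675 CPM and was not called (log2 fold change -0.12, edgeR adjusted p = 0.328). Gsr, which returns oxidised glutathione to its reduced form, averaged 516 ± 21.5 and 432 ± 18 CPM (SD, n = 3 each). Its call (edgeR adjusted p = 0.0303) held only in the fit without liproxstatin-1 library 3.

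The promoters of Gclm and Slc7a11 are shown as 2 called genes of glutathione supply, 1 with the antioxidant element letters and 1 without. Both windows are 250 bases that end at the RefSeq start in GRCm38.p6, Gclm at chr3:122245307-122245556 on the plus strand and Slc7a11 at chr3:50443614-50443863 on the minus strand, written 5′ to 3′ along the gene with matches to the same 3 motifs on either strand in capitals.
Gclm: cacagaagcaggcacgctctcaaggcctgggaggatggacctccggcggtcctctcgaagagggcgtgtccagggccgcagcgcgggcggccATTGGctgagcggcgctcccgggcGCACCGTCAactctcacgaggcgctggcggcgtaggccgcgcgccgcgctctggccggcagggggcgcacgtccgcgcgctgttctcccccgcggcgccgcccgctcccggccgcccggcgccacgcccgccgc
Slc7a11: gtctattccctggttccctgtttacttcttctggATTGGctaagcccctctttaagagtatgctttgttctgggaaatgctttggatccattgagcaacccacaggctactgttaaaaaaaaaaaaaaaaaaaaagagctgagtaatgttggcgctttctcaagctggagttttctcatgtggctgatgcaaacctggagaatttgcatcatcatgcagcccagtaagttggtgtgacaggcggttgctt
In Gclm the antioxidant element match began 134 bases before the start and a CCAAT match 158 bases before it, both on the minus strand. In Slc7a11 the single match was CCAAT at 216 bases. RefSeq windows were found for 12 of the 13 called targets, with 17 promoters, and 4 of these (23.5%) held the antioxidant element letters, in Abcc2, Gclm, Txnrd1 and Ugdh. The share was 20.8% of the 48 windows of all listed targets, called or not, and 11.9% of the windows of tested genes. No match says only that these letters are not in the window.

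Srxn1 (chromosome 2, positions 152105516 to 152111376, plus strand), the sulfiredoxin that restores overoxidised peroxiredoxins, measured 2034, 1893 and 1996 CPM with liproxstatin-1 and 1449, 1500.4 and 1454 CPM with Mito-TEMPO. Each group was tight and the 2 groups were apart, with a log2 fold change of -0.43 (standard error 0.05; adjusted p = 0.000313, edgeR). Both were above FAC alone (916 ± 41.1 CPM) and control (516 ± 20.9 CPM; SD, n = 3 each). Txnrd1, the cytosolic thioredoxin reductase, averaged 1491 ± 83.3 and 1235 ± 61 CPM. Its call (edgeR adjusted p = 0.0272) was kept only in the fit without Mito-TEMPO library 2.

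Among the enzymes that supply NADPH, Idh1, the cytosolic isocitrate dehydrogenase, measured 965, 953 and 899.7 CPM with liproxstatin-1 and 756, 680.5 and 772 CPM with Mito-TEMPO. It was lower in every Mito-TEMPO library and called in every fit without 1 library (log2 fold change -0.35, edgeR adjusted p = 0.00641). Pgd, of the pentose phosphate pathway, averaged 579.6 ± 34.6 and 481 ± 13.4 CPM (SD, n = 3 each), and its call (edgeR adjusted p = 0.0344) was kept only in the fit without liproxstatin-1 library 3. G6pdx, the first enzyme of that pathway, measured 62.1, 52 and 65.3 CPM and 59, 48.9 and 58.9 CPM, and the groups overlapped (edgeR adjusted p = 0.815).

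Abcc2 (chromosome 19, positions 43782192 to 43840740, plus strand), the pump that exports glutathione conjugates and bilirubin glucuronides into bile, was lower to about the same degree as Slc7a11. It measured 381, 404 and 438 CPM with liproxstatin-1 and 289, 260.5 and 257 CPM with Mito-TEMPO, without overlap. The log2 fold change was -0.60 (standard error 0.08; adjusted p = 0.000313, edgeR), and both means lay above FAC alone (186 ± 18.3 CPM) and control (113 ± 6.91 CPM; SD, n = 3 each). The glutathione transferases Gsta1 and Gsta2 were called lower. Gsta2 measured 43.5, 38.1 and 33.4 CPM and 28.3, 23.7 and 24.6 CPM (log2 fold change -0.59, edgeR adjusted p = 0.00569), with its call lost without liproxstatin-1 library 1. Gsta1 averaged 77.8 ± 7.69 and 60.1 ± 1.53 CPM (edgeR adjusted p = 0.0324), called only in the fit without liproxstatin-1 library 3. These 2 genes are 97.2% identical and share near-identical copies, so the counts of each are uncertain. Ugdh, which makes the glucuronic acid donor, measured 1679, 1692 and 1666 CPM and 1466, 1349 and 1368 CPM (log2 fold change -0.27, edgeR adjusted p = 0.00922). Its call was lost without liproxstatin-1 library 2 or Mito-TEMPO library 3.

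Sqstm1, the autophagy receptor p62 that also binds KEAP1, was among the most abundant of the called targets. It measured 5658, 5399 and 5400.3 CPM with liproxstatin-1 and 3979, 4339.5 and 4400.0 CPM with Mito-TEMPO. The log2 fold change was -0.37 (standard error 0.06; adjusted p = 0.00481, edgeR), the groups did not overlap, and the Mito-TEMPO mean of 4239.6 ± 227 CPM was near that of FAC alone, 4194 ± 299 CPM (SD, n = 3 each). Other genes overlap 17.28% of its exonic bases. Nqo1, a quinone reductase, measured 32.1, 32.5 and 34 CPM and 26.4, 27 and 25.8 CPM and was not called (edgeR adjusted p = 0.19). Hmox1, the heme oxygenase, measured 1442, 1458 and 1535 CPM and 1097, 1408 and 1275 CPM (edgeR adjusted p = 0.237), with both groups below the 2559.8 ± 48.7 CPM of FAC alone (SD, n = 3). Fth1, the ferritin heavy chain, averaged 4488 ± 402 and 3812 ± 105 CPM and was not called (edgeR adjusted p = 0.11).

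The 8 NRF2 regulators had a median log2 fold change of -0.128. Of these, 1 was called lower and none higher, beside 0.879% and 0.465% of all genes tested. That gene was Maff, a small MAF partner of NRF2, at 37.1, 36.1 and 34.5 CPM with liproxstatin-1 and 24.2, 27 and 25.1 CPM with Mito-TEMPO. Its groups did not overlap (log2 fold change -0.50, edgeR adjusted p = 0.0192), and its call was lost without liproxstatin-1 library 1 or 2 or Mito-TEMPO library 1 or 3. Nfe2l2, the NRF2 gene, measured 186, 201 and 203 CPM and 187, 204 and 213 CPM, with overlap (log2 fold change 0.03, standard error 0.07; adjusted p = 0.894, edgeR).

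**Figure D3:**
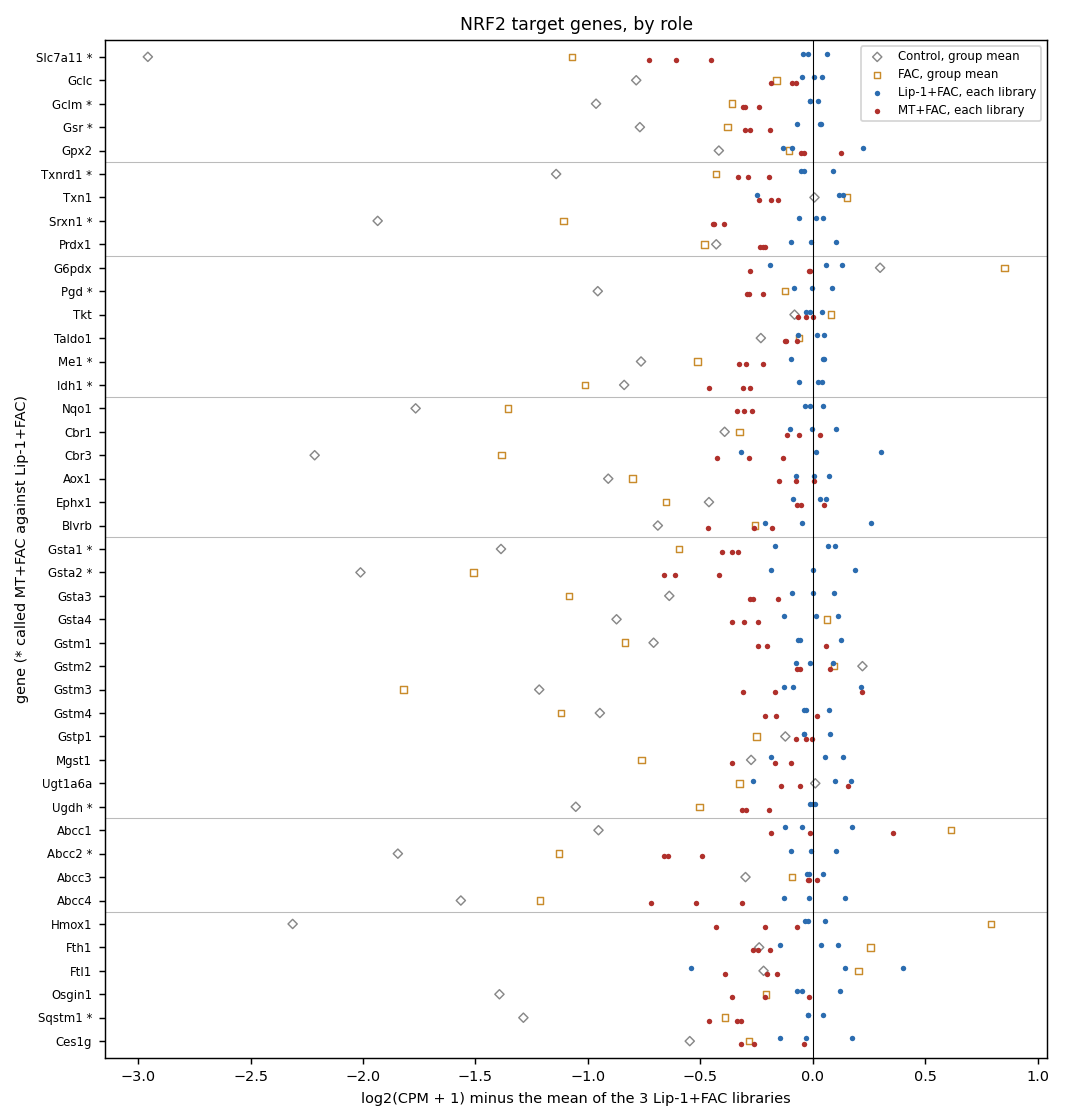
Expression of NRF2 target genes in each library, as log2(CPM + 1) minus the mean of the 3 liproxstatin-1 + FAC libraries. Genes are ordered by role, with filled points for single libraries of the 2 compared groups (blue liproxstatin-1 + FAC, red Mito-TEMPO + FAC), open marks for the means of control and FAC alone, and an asterisk for a called gene. In the called genes all 3 red points lie to the left of the blue points.

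Transcripts of the mitochondrial genome were lower with Mito-TEMPO for some genes and not for others. Of 13 protein-coding mitochondrial genes 10 passed the filter on low counts. Beside 0.879% of all genes tested, 2 of these 10 were called lower. The median log2 fold change was -0.55, but it was -0.29 without liproxstatin-1 library 1, -0.689 without liproxstatin-1 library 3, and -0.222 with a minimum of 5 CPM. The mitochondrial mRNAs made up 0.6317%, 0.6943% and 0.6412% of gene counts in the liproxstatin-1 libraries and 0.5253%, 0.5923% and 0.5895% in the Mito-TEMPO libraries. Each Mito-TEMPO library was below each liproxstatin-1 library, with means of 0.569% ± 0.0379 and 0.656% ± 0.0337 (SD, n = 3 each), beside 0.967% ± 0.102 in control and 1.065% ± 0.0309 with FAC alone. The difference between the scavengers was -0.0867 percentage points, with an exact two-sided permutation p of 0.1, the smallest that 3 libraries against 3 can give.

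mt-Nd1 (mitochondrial genome, positions 2751 to 3707), a complex I subunit, measured 765, 815 and 648 CPM with liproxstatin-1 and 383, 386 and 458 CPM with Mito-TEMPO. The groups were apart, and both were below control (1185 ± 170.2 CPM) and FAC alone (1227 ± 109 CPM; SD, n = 3 each). The log2 fold change was -0.86 (standard error 0.12; adjusted p = 0.00329, edgeR). mt-Cytb, the cytochrome b of complex III, measured 618, 652 and 555 CPM and 405, 425 and 468 CPM, without overlap (log2 fold change -0.49, standard error 0.08; adjusted p = 0.00221, edgeR). Both calls held in each fit without 1 library, and the search for near-identical nuclear copies found none for these 2 genes.

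mt-Nd3, mt-Nd4l and mt-Atp8 did not pass the filter, and 8 tested genes were not called. mt-Nd2 measured 278, 324 and 215 CPM with liproxstatin-1 and 160.5, 145.6 and 202 CPM with Mito-TEMPO, without overlap and with an edgeR adjusted p of 0.087. mt-Nd5, in the same complex, measured 601, 653 and 626 CPM and 586, 679 and 666 CPM (log2 fold change 0.04, edgeR adjusted p = 0.884), and its groups overlapped. mt-Co1, the most abundant, measured 3566, 3923 and 3972 CPM and 3239, 3802 and 3546 CPM (log2 fold change -0.11, edgeR adjusted p = 0.584). mt-Nd4 averaged 441 ± 41.3 and 377 ± 30.0 CPM, and mt-Nd6 84.5 ± 16.6 and 80.6 ± 15.5 CPM (SD, n = 3 each), with edgeR adjusted p-values of 0.178 and 0.931. All except mt-Nd6 have nuclear copies to which reads could be assigned, of 96.7% identity for mt-Nd2, 95.2% for mt-Nd5, 100% for mt-Nd4 and up to 99.8% for mt-Co1. mt-Co2, mt-Co3 and mt-Atp6 averaged at most 1.65 ± 0.71 CPM in either group (SD, n = 3), the value of mt-Co3 with liproxstatin-1. Their products are core subunits of complex IV (mt-Co2 and mt-Co3) and complex V (mt-Atp6), and each gene has a nuclear copy of 100% identity.

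**Figure D4:**
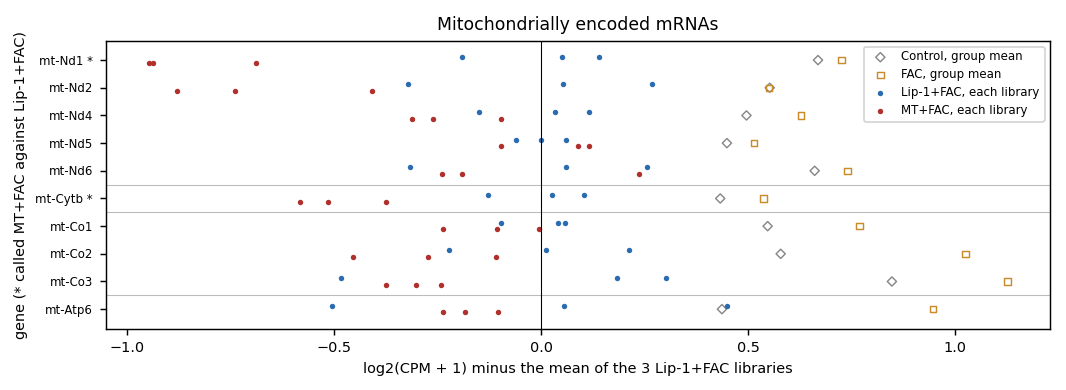
Mitochondrially encoded mRNAs in each library, as log2(CPM + 1) minus the mean of the 3 liproxstatin-1 + FAC libraries. Filled points are single libraries (blue liproxstatin-1 + FAC, red Mito-TEMPO + FAC) and open marks the means of control and FAC alone. For the called mt-Nd1 and mt-Cytb all red points lie to the left of the blue points, and the scale compresses mt-Co2, mt-Co3 and mt-Atp6, which are near 1 CPM.

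The 3 lists of nuclear genes for the mitochondrion held no calls. None of the 73 tested nuclear OXPHOS subunits was called, with 64 log2 fold changes below 0, a median of -0.0904, and a median of -0.004 without liproxstatin-1 library 1, -0.0522 without library 2 and -0.22 without library 3 of that group. None of 25 tested genes of mitochondrial DNA and RNA machinery was called (median log2 fold change 0.0083), nor any of 20 mitochondrial antioxidant and proteostasis genes (median -0.0762). Sod2, the superoxide dismutase of the mitochondrial matrix, measured 214, 198 and 186 CPM with liproxstatin-1 and 188, 185 and 189 CPM with Mito-TEMPO, with overlap (edgeR adjusted p = 0.548). Nuclear genes of mitochondrial proteins outside these lists were called, 2 of which are given here, chosen after their values were seen. Grpel2, a cofactor of mitochondrial HSP70, averaged 122 ± 2.08 and 92.6 ± 3.7 CPM (SD, n = 3 each; adjusted p = 0.000954, edgeR), and Slc25a44, a mitochondrial carrier of branched-chain amino acids, 314 ± 24.2 and 238 ± 10.03 CPM (SD, n = 3 each; adjusted p = 0.00211, edgeR).

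The 16 tested genes of ferroptosis and lipid peroxide defence had a median log2 fold change of -0.0238. Of these, 1 was called lower with Mito-TEMPO, beside 0.879% of all genes tested. It was Acsl3, which activates monounsaturated fatty acids, at 67.6, 70.5 and 71.7 CPM with liproxstatin-1 and 57.6, 59.8 and 55.6 CPM with Mito-TEMPO. Its groups did not overlap (log2 fold change -0.28, edgeR adjusted p = 0.0309), and it was called only in the fit without Mito-TEMPO library 2. Gpx4, the glutathione peroxidase that reduces lipid hydroperoxides, measured 448, 429 and 374 CPM and 395, 376 and 395 CPM, with overlap (edgeR adjusted p = 0.562), and a pseudogene of 99.7% identity makes its counts uncertain. Aifm2, the coenzyme Q reductase FSP1, measured 58, 61.2 and 60.9 CPM and 64.7, 65.4 and 64.1 CPM (edgeR adjusted p = 0.504), and Acsl4, which activates polyunsaturated fatty acids, averaged 112 ± 4.83 and 102 ± 7.74 CPM (edgeR adjusted p = 0.412). None of the 30 tested iron genes was called (median log2 fold change -0.039). The transferrin receptor gene Tfrc averaged 20.3 ± 2.51 and 17.7 ± 1.19 CPM, the iron exporter gene Slc40a1 1482 ± 32.2 and 1318 ± 12.5 CPM, and the hepcidin gene Hamp 5.75 ± 0.427 and 7.47 ± 0.654 CPM (SD, n = 3 each), with edgeR adjusted p-values of 0.52, 0.131 and 0.651.

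The 35 tested genes of dedifferentiation and cytoskeleton had a median log2 fold change of 0.276. The Mito-TEMPO libraries lay wholly above in 12 and wholly below in 1, beside 10.2% and 9.6% of all genes tested. In this list 4 genes were called higher and none lower, beside 0.465% and 0.879% of all genes tested. That count was 1, Emp1, without any of the 3 liproxstatin-1 libraries or without Mito-TEMPO library 2 or 3, and 11 without Mito-TEMPO library 1. The count was also 11 with DESeq2, 9 with no filter on low counts and 8 with a block for replicate number. It was 6 with upper-quartile factors or with a mean of at least 5 CPM. With only the 6 compared libraries, without FAC library 2 or with GC content and length offsets it was 2. The median was 0.1593 without Mito-TEMPO library 2. Emp1 (chromosome 6, positions 135362545 to 135383173, plus strand), a membrane protein of epithelial cells, measured 2.69, 3.15 and 2.83 CPM with liproxstatin-1 and 6.5, 10.3 and 12.7 CPM with Mito-TEMPO. Mito-TEMPO library 1 was the lowest of its group and still above the liproxstatin-1 libraries, and the mean with FAC alone was 16.3 ± 1.21 CPM (SD, n = 3). Its log2 fold change of 1.75 (standard error 0.21; adjusted p = 0.000313, edgeR) was the largest of any called protein-coding gene with a mean of at least 5 CPM. Ccn2, a matricellular target of YAP and TGF-beta, measured 139, 156 and 140.2 CPM and 168, 263 and 236 CPM (edgeR adjusted p = 0.047), and both groups lay below control (321 ± 21.1 CPM) and FAC alone (740.1 ± 26.6 CPM; SD, n = 3 each). The other called members were Actg1, the cytoplasmic gamma-actin, at 278 ± 20.2 and 378 ± 55.4 CPM, and Tubb6, a beta-tubulin, at 352 ± 34.5 and 472 ± 57.7 CPM. In 3 of 5 tested cholangiocyte markers (Krt19, Sox9 and Krt7) the Mito-TEMPO libraries lay wholly above, beside 10.2% of all genes tested, with a median of 0.32 over the 5. Krt7 was near the floor, at 0.127 to 0.179 CPM with liproxstatin-1 and 0.188 to 0.345 CPM with Mito-TEMPO. Epcam overlapped, at 0.179 to 0.291 CPM and 0 to 0.383 CPM in the same order. Spp1, the most abundant of these markers, overlapped between groups, at 94 to 111 CPM with liproxstatin-1 and 86.9 to 125 CPM with Mito-TEMPO. Krt19 stood at 1.27 to 1.86 CPM with liproxstatin-1 and 2.31 to 2.94 CPM with Mito-TEMPO, and Sox9 at 10.4 to 13.4 and 13.6 to 16.6 CPM, and neither was called (edgeR adjusted p-values of 0.199 and 0.217). The part of such cells in these results was not tested. Actg1 has near-identical processed pseudogenes, and another gene overlaps 23.24% of the exonic bases of Ccn2.

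Glycolysis had 2 of 24 tested genes called higher and none lower, with 21 log2 fold changes above 0, a median of 0.174, and 13 genes whose Mito-TEMPO libraries lay wholly above. Over all genes tested, 0.465% were called higher and 10.2% lay wholly above. The calls were 0 without liproxstatin-1 library 1 or Mito-TEMPO library 2 or 3, 1 without liproxstatin-1 library 2 or 3, and 3 without Mito-TEMPO library 1. They were 8 with no filter on low counts, 6 with DESeq2 and 4 with only the 6 compared libraries, and 1 without FAC library 2 or with GC content and length offsets. Slc2a1, the glucose transporter GLUT1, measured 81.3, 102 and 92.3 CPM with liproxstatin-1 and 119, 159 and 133 CPM with Mito-TEMPO. The groups did not overlap (log2 fold change 0.58, edgeR adjusted p = 0.0336), and both were below FAC alone at 324 ± 12.8 CPM (SD, n = 3). The Slc2a1 call was lost without liproxstatin-1 library 1 or 3, Mito-TEMPO library 2 or 3, or FAC library 2. It was also lost with GC content and length offsets and with a block for replicate number. Pfkfb3, which makes the activator of phosphofructokinase, measured 26.6, 31.2 and 34.4 CPM and 41.9, 42.3 and 42 CPM (log2 fold change 0.45, edgeR adjusted p = 0.0189). Its call was lost without liproxstatin-1 library 1 or 2 or Mito-TEMPO library 2 or 3.

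The called immediate early genes went in both directions. Of 15 tested AP-1 and immediate early genes, 2 were called higher and 1 lower, beside 0.465% and 0.879% of all genes tested. The median log2 fold change of the list was -0.0062. Fos, a subunit of AP-1, measured 7.6, 7.72 and 8.84 CPM with liproxstatin-1 and 11.1, 13.1 and 13.2 CPM with Mito-TEMPO, without overlap (log2 fold change 0.63, standard error 0.10; adjusted p = 0.00226, edgeR). Fosb, its relative, averaged 0.181 ± 0.0733 and 0.877 ± 0.253 CPM (SD, n = 3 each), and its call (edgeR adjusted p = 0.0192) was lost without liproxstatin-1 library 1 or 2 or Mito-TEMPO library 2 or 3. Egr1, a zinc finger factor induced by the same stimuli, went the other way, at 42.9, 53.6 and 50.5 CPM with liproxstatin-1 and 23.8, 34.5 and 33.4 CPM with Mito-TEMPO (log2 fold change -0.68, standard error 0.12; adjusted p = 0.0106, edgeR). Its call was lost without liproxstatin-1 library 2. All 3 genes were highest with FAC alone, at means of 44.5 ± 0.732, 1.87 ± 0.33 and 93.2 ± 7.8 CPM. In the list of EGFR and MAPK feedback genes, with a median log2 fold change of 0.0356, 1 of 22 was called higher and 1 lower (Egr1). The shares over all genes tested were 0.465% and 0.879%. The gene called higher was Errfi1 (chromosome 4, positions 150853919 to 150868892, plus strand), a feedback inhibitor of the EGF receptor, at 1083, 1161 and 1307 CPM and 1544, 1645 and 1616 CPM (log2 fold change 0.44, standard error 0.06; adjusted p = 0.000954, edgeR). Its Mito-TEMPO libraries lay between liproxstatin-1 and control, whose mean was 2063 ± 46.3 CPM (SD, n = 3).

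Among 37 PPARA and fatty acid oxidation genes (median log2 fold change -0.0083), 1 was called higher, beside 0.465% of all genes tested. That gene was Angptl4 (chromosome 17, positions 33773750 to 33781830, minus strand), a secreted inhibitor of lipoprotein lipase. It measured 79.6, 80.3 and 82.5 CPM with liproxstatin-1 and 125, 123 and 124 CPM with Mito-TEMPO. The libraries of each group nearly coincided, the liproxstatin-1 mean was at the level of FAC alone (80.1 ± 3.71 CPM), and control stood at 159 ± 13.1 CPM (SD, n = 3 each). The log2 fold change was 0.62 (standard error 0.06; adjusted p = 5.72e-05, edgeR). Shroom1 (chromosome 11, positions 53457205 to 53467766, plus strand), an actin-binding protein in no list, measured 38.1, 40.03 and 42.4 CPM and 65.4, 72.7 and 66.2 CPM (log2 fold change 0.76, standard error 0.08; adjusted p = 0.000116, edgeR). Hivep3, a zinc finger factor, averaged 4.48 ± 0.671 and 8.86 ± 0.503 CPM with liproxstatin-1 and Mito-TEMPO (SD, n = 3 each; edgeR adjusted p = 0.000954). Of 9 tested BMP and TGF-beta targets, 4 had Mito-TEMPO libraries wholly above and none wholly below, beside 10.2% and 9.6% of all genes tested. Their median log2 fold change was 0.306, and 1 was called higher, beside 0.465% of all genes. That gene was Atoh8, a helix-loop-helix factor induced by BMP signals in the liver. It measured 5.28, 5.22 and 6.39 CPM and 10.8, 10.2 and 10.3 CPM, without overlap (log2 fold change 0.90, standard error 0.13; adjusted p = 0.00149, edgeR), and both groups stood far below the control mean of 44.6 ± 4.01 CPM.

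**Figure D5:**
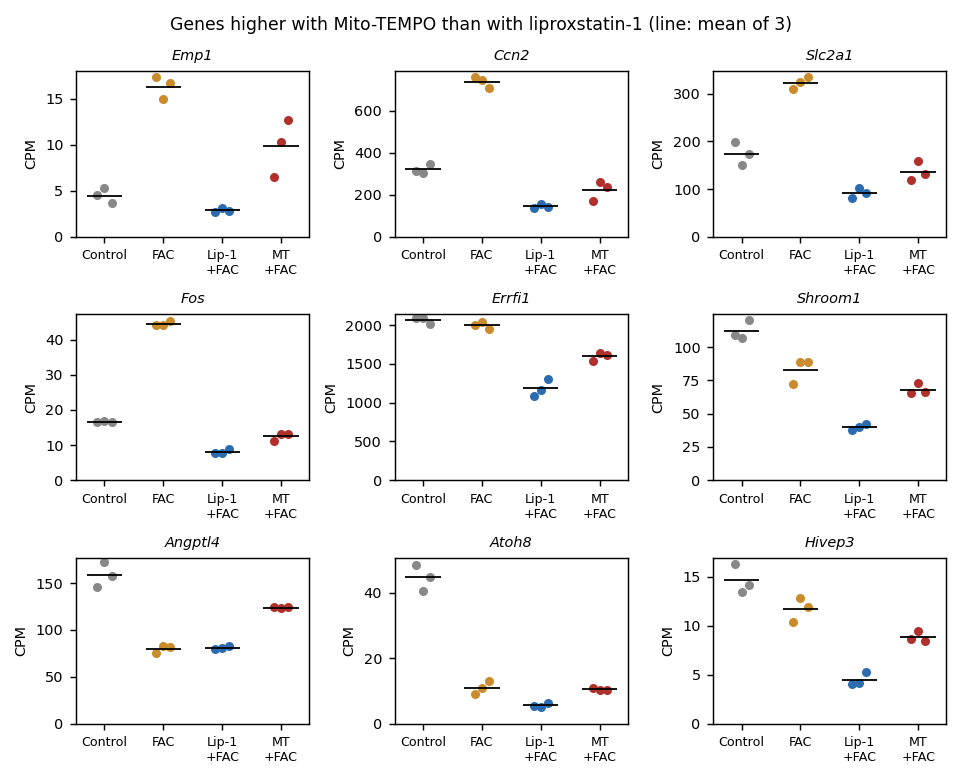
CPM in each library of the 4 groups for Emp1, Ccn2, Slc2a1, Fos, Errfi1, Shroom1, Angptl4, Atoh8 and Hivep3, which were called higher with Mito-TEMPO + FAC than with liproxstatin-1 + FAC. Points are libraries and lines the mean of 3, and in each panel the 3 Mito-TEMPO + FAC points lie above the 3 liproxstatin-1 + FAC points.

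The remaining lists held few calls. Over all genes tested, 0.465% were called higher and 0.879% lower. None of 26 integrated stress response genes was called, although 18 had positive log2 fold changes and 11 had Mito-TEMPO libraries wholly above, beside 10.2% of all genes (median 0.125). Its members Atf4, the central factor, at 159 ± 0.978 and 156 ± 12.4 CPM, Chac1, a glutathione-degrading enzyme, at 38.8 ± 1.61 and 47.3 ± 4.11 CPM, and Gdf15, a secreted stress hormone, at 64.2 ± 1.17 and 68.7 ± 1.11 CPM, had edgeR adjusted p-values of 0.921, 0.131 and 0.858. Of 12 ER chaperone genes, 1 was called lower (median log2 fold change 0.0051). It was Dnajb9, a co-chaperone of BiP, at 65.3, 65.8 and 62.2 CPM and 47.5, 41.1 and 43.4 CPM, without overlap (log2 fold change -0.55, edgeR adjusted p = 0.00252). None of 10 cytosolic heat shock genes was called (median -0.12), although 8 had negative log2 fold changes and 6 had Mito-TEMPO libraries wholly below, beside 9.6% of all genes. The mean log2 CPM of that list relative to the liproxstatin-1 group was -0.0619 to 0.062 in the liproxstatin-1 libraries and -0.1448 to -0.0999 in the Mito-TEMPO libraries, without overlap. None of 12 HIF targets (median 0.165), 31 proteasome subunits (median -0.041) or 21 hepatocyte identity genes (median 0.0041) was called. Of 15 p53 targets, 1 was called higher (median 0.0466): Btg2, an antiproliferative gene, at 109 ± 5 and 139 ± 11.2 CPM, called in all fits except those without liproxstatin-1 library 1 or Mito-TEMPO library 2 or 3. Of 32 tested drug-metabolizing P450 genes, 1 was called higher and 1 lower (median 0.0007). Cyp2s1, the higher, averaged 3.76 ± 1.38 and 7.92 ± 1.96 CPM, and Cyp2a5, the lower, 1126 ± 101 and 789 ± 107 CPM (SD, n = 3 each). Neither call held without liproxstatin-1 library 1 or Mito-TEMPO library 2 or 3, and Cyp2a5 shares 98.2% identity with Cyp2a4. Cyp1a1, a target of the aryl hydrocarbon receptor, averaged 5.73 ± 1.42 and 4.62 ± 0.292 CPM (edgeR adjusted p = 0.577).

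Of the 182 called genes, 180 were protein coding. The other 2 were 2310034O05Rik, a long intergenic non-coding RNA, and Gm47585. 2310034O05Rik measured 9.86, 9.01 and 8.46 CPM with liproxstatin-1 and 3.06, 3 and 2.46 CPM with Mito-TEMPO (log2 fold change -1.67, standard error 0.16; adjusted p = 3.46e-05, edgeR). It was called in each fit without 1 library, and the Mito-TEMPO libraries were at the level of FAC alone, 3.09 ± 0.311 CPM (SD, n = 3). Gm47585, which the annotation lists as yet to be experimentally checked, had 1 read in each liproxstatin-1 library and 11, 11 and 8 reads in the Mito-TEMPO libraries, and its call was lost without any 1 library. Outside the lists, several protein-coding genes were among the largest falls by the naming rule. Xkr9, of the XK family, averaged 46.1 ± 0.425 and 29.5 ± 1.4 CPM, Ttc23 73.1 ± 3.52 and 46.3 ± 5.87 CPM, and Lrp8, a receptor for apolipoprotein E and reelin, 33.3 ± 2.92 and 21.6 ± 1.55 CPM (SD, n = 3 each). Their log2 fold changes were -0.64, -0.66 and -0.62, and all 3 were called in each fit without 1 library. Stk10, a kinase, averaged 10.9 ± 1.1 and 6.27 ± 0.915 CPM, and Arrdc4, an arrestin-like protein, 29.3 ± 3.64 and 19 ± 2.2 CPM. Their calls (edgeR adjusted p-values of 0.0246 and 0.0336) were lost in 5 of the 6 fits. Higher with Mito-TEMPO were Rgs2, a brake on G protein signalling, at 10.4 ± 1.07 and 18.5 ± 3.76 CPM, F3, tissue factor, at 28.6 ± 4.82 and 46.5 ± 10.02 CPM, and Gys1, a glycogen synthase, at 9.55 ± 0.171 and 14.9 ± 1.58 CPM. AA986860 averaged 6.9 ± 0.53 and 12.6 ± 0.948 CPM, Tent5b 3.92 ± 0.241 and 6.6 ± 1.23 CPM, and Zfp324 5.49 ± 0.883 and 9.08 ± 2.1 CPM (SD, n = 3 for each mean). Each of these 6 lost its call in at least 3 of the 6 fits without 1 library.

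Among the called genes, liproxstatin-1 stood at an extreme of the 4 group means more often than Mito-TEMPO. Of the 119 genes lower with Mito-TEMPO, liproxstatin-1 had the highest of the 4 group means in 96 (80.7%) and Mito-TEMPO the lowest in 10 (8.4%). Over all 6716 tested genes with a negative log2 fold change these shares were 45.3% and 33.4%. Of the 63 genes higher with Mito-TEMPO, liproxstatin-1 had the lowest mean in 48 (76.2%) and Mito-TEMPO the highest in 4 (6.35%), beside 45.6% and 33.5% of the 6819 tested genes with a positive log2 fold change. These counts describe genes chosen by the difference between the 2 groups and carry no test. They do not show how near Mito-TEMPO stood to control or FAC alone.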

How the data were processed

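RNA was sequenced from 12 libraries of primary mouse hepatocytes, 3 per group, made with SMART-Seq v4 and Nextera XT kits and read on a NovaSeq, per the labels' protocols. The authors deposited read counts per gene for each library. STAR and the build GRCm38 are named in the submitters' processing notes; the version, settings and annotation are not given in the sources used here. The unstranded count column was used, without its 4 summary rows, and genes took 80.39% to 81.17% of listed reads in the 6 compared libraries. Of 55487 identifiers, 55227 matched GENCODE M21, the source of names, positions and biotypes.

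Genes were filtered by edgeR's filterByExpr, scaled by TMM and fitted over all 12 libraries with 4 group means (edgeR 4.0.16, R 4.3.3), robust quasi-likelihood, contrast Mito-TEMPO + FAC minus liproxstatin-1 + FAC, Benjamini-Hochberg over 13535 genes, called below 0.05. CPM values use TMM-scaled sizes of the tested genes. The share of mitochondrial mRNAs was compared by an exact permutation test. The scripts were tested on simulated data. Alternatives covered scaling, filters, DESeq2 1.42.0, GC content and length, the count column, a replicate block, and leaving out each library; limma 3.58.1 was loaded with edgeR. Near-identical copies were searched with blastn 2.17.0+. Promoters came from RefSeq windows, searched for 3 motifs.

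Named genes were the 12 largest rises and 12 largest falls among called, non-overlapping protein-coding genes with a mean of at least 5 CPM over the 6 libraries, the 5 smallest adjusted p-values, the called non-coding gene with the largest difference in each direction, every called list member, and a set of core members. Some of these genes enter the counts and are not reported here by name. The members and lists were chosen with earlier results of these data known.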

Additional observations from a re-analysis of the deposited data

How the results depend on the processing

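Against 182 called genes, 477 were called with no filter on low counts, 422 with DESeq2, 312 with only the 6 compared libraries, and 11 when a log2 fold change of at least 1 was also required. Leaving out 1 library gave 74 to 156 calls, with 76 and 77 without liproxstatin-1 libraries 1 and 2, and 86 and 74 without Mito-TEMPO libraries 2 and 3. Other alternatives gave 156 to 252 calls, the lowest without FAC library 2 and the highest with the 2 stranded columns summed, and GC content and length offsets gave 185. A replicate block gave 193 calls, and 190 with GC content and length offsets. Median GC content was 45.8% in genes called lower with Mito-TEMPO, 53.6% in those called higher and 49.4% in those not called. The median exonic lengths were 5129, 3613 and 4091.5 bases in that order. Of the 182 genes, 40 lost their call with GC content and length offsets (among them Slc2a1, Acsl3, Pgd, Actg1, Tubb6, Stard4 and Cyp2a5), 24 with the replicate block (among them Slc2a1 and Gsta1) and 45 with both. Over all genes tested, the deviations of same-numbered libraries of the 2 groups correlated at 0.0717, 0.035 and -0.0568. For libraries with different numbers the correlations were -0.0939 to 0.0543. In the dedifferentiation and cytoskeleton list, library 1 had the lowest mean level of its group in all 4 groups. Whether the replicate numbers mark a pairing was not tested further. The share of calls higher with Mito-TEMPO, 34.6%, was 46.7% with upper-quartile factors, 49.7% without a filter and 45.7% with DESeq2, and 17.1% to 51.3% when 1 library was left out. None of the 182 called genes changed sign under the 18 alternatives; 52 were called under all of them, 56 in all 6 fits without 1 library and 29 in none of those 6. The called cholesterol genes numbered 7 to 14 over the alternatives and the NRF2 targets 7 to 20. The difference in mitochondrial mRNA share, -0.0867 percentage points, ranged from -0.0988 to -0.0648 without 1 library and was -0.0689 with all mitochondrial genes and -0.0798 with stranded columns. The cause of these shifts was not tested.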

Other observations

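Of the 182 called genes, 133 were in none of the lists. Those that follow were chosen after their values were seen and are given as values. Among the genes lower with Mito-TEMPO, Ctsl, a lysosomal protease, averaged 2164 ± 40.2 CPM with liproxstatin-1 and 1728 ± 3.71 CPM with Mito-TEMPO (SD, n = 3 each). Creg1, a glycoprotein of the endolysosomal system, averaged 1026 ± 52.1 and 829.8 ± 48.8 CPM, and Gpnmb, a lysosomal membrane glycoprotein, 161 ± 21.4 and 118 ± 7.46 CPM. Rragd, a GTPase of the lysosomal mTORC1 machinery, averaged 20.5 ± 0.432 and 14.3 ± 0.758 CPM, and Fnip1, a partner of folliculin, 53.7 ± 4.6 and 40.3 ± 0.209 CPM. In edgeR the 5 genes had adjusted p-values of 0.00167, 0.0205, 0.0197, 0.0209 and 0.0301 in that order. Of the 6 fits without 1 library, the call was lost in none for Ctsl, 4 for Creg1, 3 for Gpnmb, all 6 for Rragd and 5 for Fnip1.

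Mospd1 averaged 185 ± 11.8 and 124 ± 3.85 CPM, and Entpd5, an endoplasmic reticulum nucleotidase, 699 ± 26.7 and 557 ± 30.4 CPM. Chka, which begins phosphatidylcholine synthesis, averaged 440.5 ± 16.7 and 318 ± 5.58 CPM, Pank3, a coenzyme A synthesis enzyme, 83.1 ± 2.74 and 60.0 ± 4.7 CPM, Prkaa2, a catalytic subunit of AMPK, 137 ± 8.01 and 105 ± 5.42 CPM, and Dnmt3a, a DNA methyltransferase, 69.4 ± 3.78 and 50.4 ± 1.46 CPM. Higher with Mito-TEMPO were Fhl2, a LIM-domain cofactor, at 2.83 ± 0.499 and 6.56 ± 1.44 CPM, Srf, the serum response factor, at 32.2 ± 1.96 and 45.7 ± 2.91 CPM, Tsc22d3, a glucocorticoid-induced factor, at 59.9 ± 1.86 and 87.6 ± 4.33 CPM, and Klhl25 at 64.5 ± 5.9 and 93.3 ± 5.7 CPM. These 10 genes, and Ctsl, were called in each fit without 1 library.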
